A study of Mus musculus with 64 samples.

Results

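The thermogenic and uncoupling protein genes comprise 9 mouse genes that govern or carry out heat production and mitochondrial proton leak: the uncoupling proteins Ucp1, Ucp2 and Ucp3, the coactivators Ppargc1a and Ppargc1b, the transcriptional regulator Prdm16, the deiodinase Dio2, the fatty acid elongase Elovl3 and the beta-3 adrenergic receptor Adrb3. They were taken by symbol through the NCBI gene IDs of the expression table, which holds 36332 distinct IDs, and each of the 9 matched 1 ID. The series compared mice in which Myc was deleted body-wide (KO) with wild-type mice (WT) at 5 and 20 months, in omental adipose tissue, liver and skeletal muscle, over 64 RNA sequencing libraries in 12 groups. Every group held 6 libraries at 5 months, except KO muscle with 4, and every group held 5 at 20 months.

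In KO mice, a Cre recombinase that tamoxifen switches on (Cre-ERT2), expressed from the ubiquitous Gt(ROSA)26Sor locus, cut floxed Myc, on lines with B6.129 strain names. WT mice were C57/B6, so that strain background and genotype cannot be told apart. All mice are labelled as having had 5 tamoxifen injections of 75 mg/kg, begun at a weight of at least 15 g, and the controls therefore share the drug exposure. Older mice are labelled as 20 months, while their codes contain 18. A library is named here by its code, which begins with K or W for genotype and has F for adipose tissue, L for liver or S for muscle.

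Brown and beige adipocytes burn fuel as heat. Noradrenaline acts on ADRB3, cyclic AMP and protein kinase A rise, lipid is released, and UCP1 lets protons re-enter the mitochondrial matrix without ATP synthesis. PGC-1alpha (Ppargc1a) drives mitochondrial biogenesis and Ucp1 transcription, PRDM16 sustains the brown and beige program, DIO2 makes active thyroid hormone inside the cell, and ELOVL3 lengthens fatty acids during brown fat recruitment. UCP2 and UCP3 are relatives of UCP1 with other tissues of expression and no established role in cold-induced heat. Omental fat is a white visceral depot.

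Each library held 15.4 to 28.5 M gene reads. Levels are in the deposited unit, called CPM, in which 1 read was worth 0.0204 to 0.0882 CPM. Tissue markers matched the labels: 10 of 10 adipocyte markers exceeded 1 CPM in every adipose library, 10 of 10 hepatocyte markers in every liver library and 10 of 10 fibre markers in every muscle library. In 12 of the 5-month libraries, 2 per group and the same 4 code numbers in each tissue, the X-inactivation transcript Xist was present and Y-linked transcripts were absent, whereas the other 52 had Y-linked transcripts. All 20-month libraries lack Xist, so age comparisons also differ in that respect. Of the adipose libraries, 4 at 5 months (3 KO and 1 WT) held epididymal transcripts at 1024 CPM or more, against at most 2.75 CPM in the others. Among muscle libraries, the young WT library W5S5299 held 139 CPM of them, against at most 2.03 CPM in the others. Fits without libraries with epididymal transcripts left out the 4 adipose libraries only. Myc was lower in KO adipose tissue at 5 months by 1.52 on the log2 scale (adjusted p = 0.0170) and in KO liver at 5 months by 2.38 (adjusted p = 0.000930). In KO muscle at 5 months the Myc difference was -1.13 ± 0.52 (adjusted p = 1) and the groups overlapped, so the deletion is not visible at that threshold in muscle. At 20 months Myc was called in none of the tissues: KO minus WT was -0.63 ± 0.27 in adipose tissue (adjusted p = 1), -1.16 ± 0.33 in liver (adjusted p = 0.547) and -0.49 ± 0.51 in muscle (adjusted p = 0.663), and the groups overlapped in adipose tissue and muscle.

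Because cyclic AMP signals through the response element TGACGTCA (CRE), the upstream sequence of the genes was searched for the whole element and for its core TGACG, on both strands. A RefSeq promoter table (assembly GRCm38.p6) held 6 of the 9 genes: Ucp1, Ucp2, Ucp3, Ppargc1a, Prdm16 and Dio2. The 250 bases that end just before the start in that promoter table are printed for the 3 uncoupling proteins, the family compared across tissues here, and for Dio2, which holds the whole element. For Ucp2, Ppargc1a and Prdm16 this start lies inside the gene's RefSeq span. Capitals mark the core or, in Dio2, the whole element, on either strand.
Ucp1 (chr8:83290098-83290347, plus strand): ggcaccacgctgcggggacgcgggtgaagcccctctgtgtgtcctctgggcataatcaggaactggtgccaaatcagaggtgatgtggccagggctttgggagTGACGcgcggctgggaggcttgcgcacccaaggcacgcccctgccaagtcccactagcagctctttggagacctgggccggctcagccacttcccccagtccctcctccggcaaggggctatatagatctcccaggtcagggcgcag
Ucp2 (chr7:100493108-100493357, plus strand): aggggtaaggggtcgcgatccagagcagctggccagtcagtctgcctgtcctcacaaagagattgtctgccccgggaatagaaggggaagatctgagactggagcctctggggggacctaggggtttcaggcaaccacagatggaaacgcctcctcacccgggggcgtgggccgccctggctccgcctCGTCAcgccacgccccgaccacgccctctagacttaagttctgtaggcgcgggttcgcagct
Ucp3 (chr7:100472741-100472990, plus strand): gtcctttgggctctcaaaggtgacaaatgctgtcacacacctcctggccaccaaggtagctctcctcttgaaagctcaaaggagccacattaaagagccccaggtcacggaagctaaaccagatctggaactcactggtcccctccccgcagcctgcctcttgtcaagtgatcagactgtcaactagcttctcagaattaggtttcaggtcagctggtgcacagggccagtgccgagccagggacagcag
Dio2 (chr12:90739039-90739288, minus strand): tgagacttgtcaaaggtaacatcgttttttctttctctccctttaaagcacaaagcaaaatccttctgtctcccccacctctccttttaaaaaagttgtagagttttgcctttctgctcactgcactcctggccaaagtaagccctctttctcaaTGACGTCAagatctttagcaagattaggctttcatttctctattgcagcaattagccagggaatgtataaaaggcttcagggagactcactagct

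The core TGACG lay 147 bases before the start in Ucp1 and, on the other strand, 62 bases before it in Ucp2 and 49 in Ppargc1a. The whole CRE of Dio2, which contains the core on both strands, began 95 bases before the start. Over all 27025 promoters of this length, 17.9% held the core and 1.62% the whole element. The E-box CACGTG, the palindrome bound by MYC with MAX, was in none of the 6 windows and in 6.05% of all promoters. These are matches of letters, not measured binding. Ucp3 and Ucp2 lie on the same strand of chromosome 7. Their RefSeq gene spans are 6.904 kb apart, with 0 genes between them.

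In young WT mice, 8 of the 9 genes passed the test between adipose tissue and liver, 5 between adipose tissue and muscle, and 6 between liver and muscle (limma on log2(CPM + 1), adjusted p under 0.05). Tissues differ at most genes, and the share of all genes called was 71.7% for adipose tissue against liver, 70.4% against muscle and 72.3% for liver against muscle: the members' shares are near this background. Under plain library-size scaling the median of all genes shifted by 0.83 for adipose tissue against liver and by 0.62 against muscle, and 6, 5 and 5 members were called. Libraries with the same code number in different tissues may come from the same mouse, which the labels do not state, and the fit treated them as separate.

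**Figure D1:**
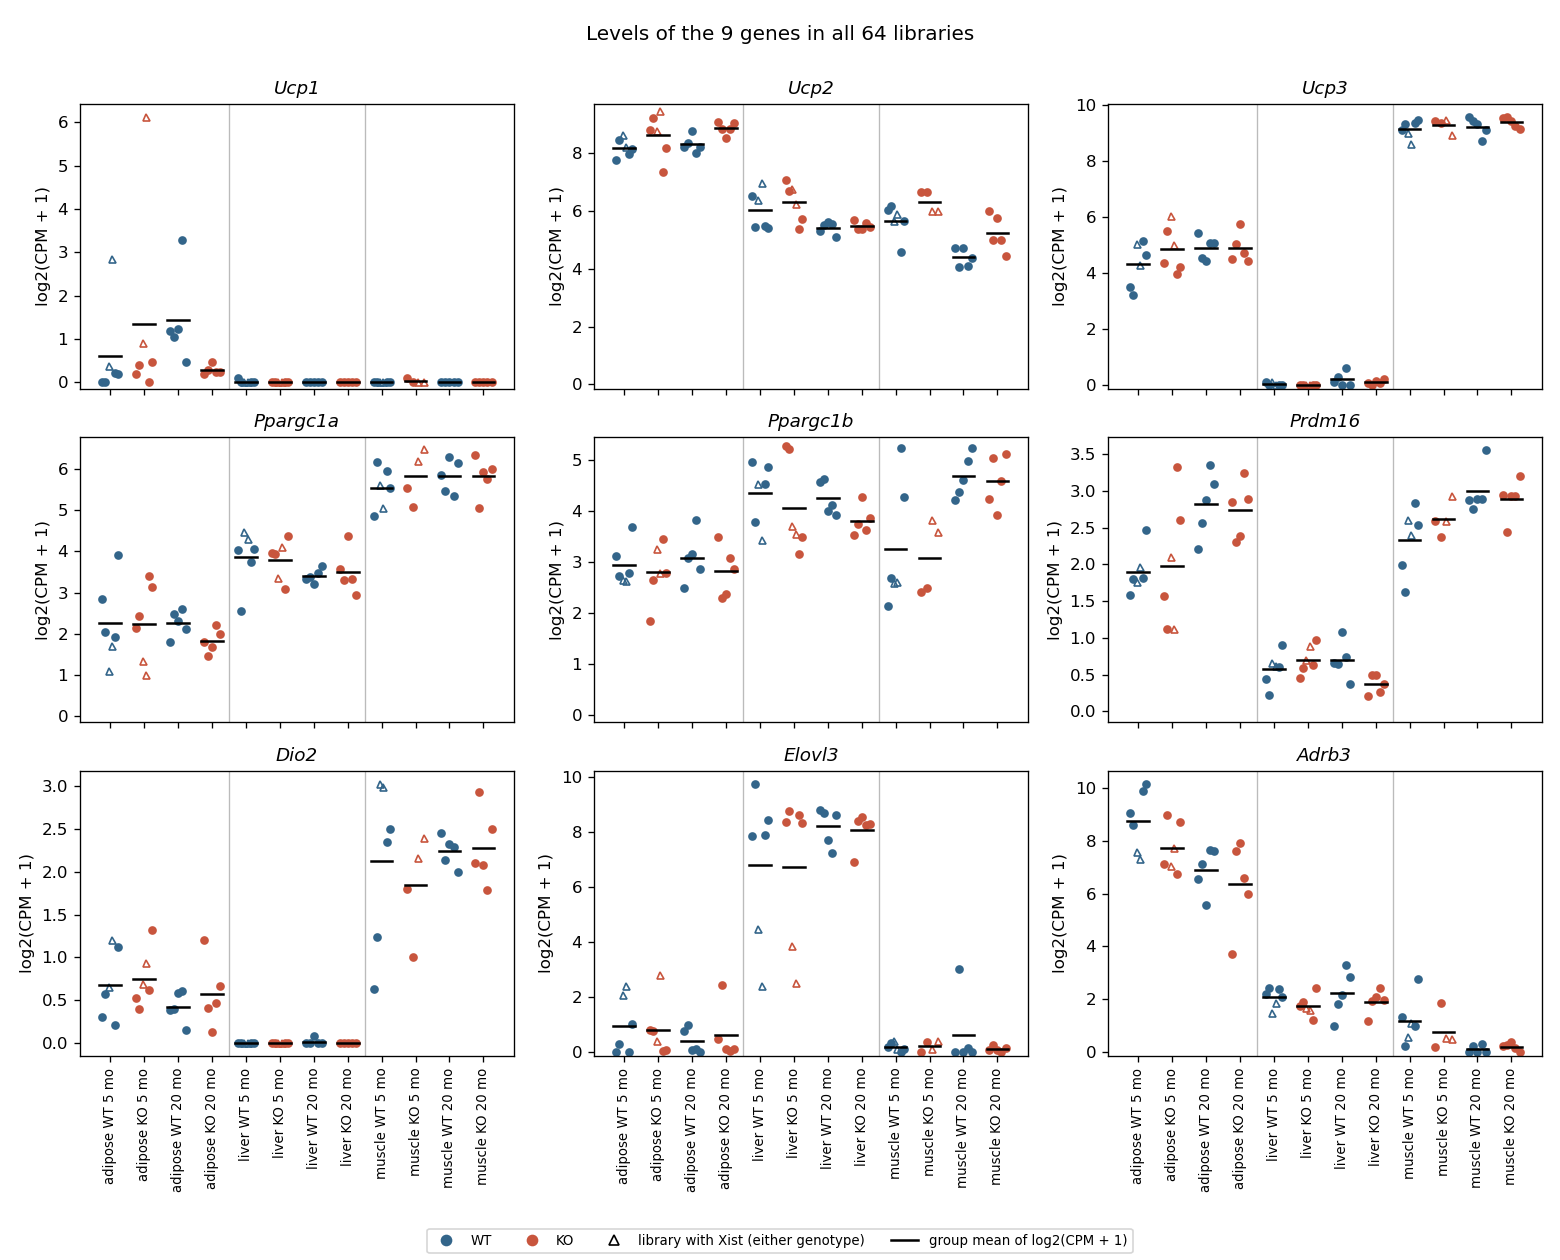
Each panel plots 1 gene as log2(CPM + 1) in every library, by tissue, genotype and age in months (mo); circles are libraries without Xist, open triangles those with Xist, and bars are group means. Ucp3 separates the 3 tissues without overlap, Elovl3 is high in liver apart from 4 low triangles, Adrb3 is high in adipose tissue, and Ucp1 is near 0 outside a few adipose libraries.

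Among the uncoupling proteins, Ucp1, the proton channel of brown fat, was at the detection limit nearly everywhere. Of the 42 liver and muscle libraries, 1 liver library and 1 muscle library held 1 read each, and 3 reads, the limit allowed by a count of 0, correspond to 0.15 to 0.265 CPM there. In adipose tissue the median over 22 libraries was 0.306 CPM. WT adipose libraries at 5 months had 0, 0, 0.151, 0.155, 0.288 and 6.16 CPM. KO adipose libraries at 5 months had 0, 0.146, 0.324, 0.388, 0.872 and 68.8 CPM. At 20 months WT libraries had 0.379, 1.05, 1.28, 1.33 and 8.69 CPM and KO libraries 0.150, 0.179, 0.186, 0.216 and 0.392 CPM. The group means therefore follow 1 library each in young KO, young WT and old WT adipose tissue, and 4 of the 5 old KO libraries lie below every old WT library (KO minus WT -1.15 ± 0.85, adjusted p = 1).

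The 3 adipose libraries with the most Ucp1 were K5F5118, W18F24 and W5F5042. K5F5118 also held the most Cidea (34.2 CPM), Cox8b (48.9 CPM) and Cox7a1 (9.18 CPM) of the 22 adipose libraries. Cidea encodes a lipid droplet protein and Cox8b and Cox7a1 encode cytochrome oxidase subunits enriched in brown fat. The developmental brown fat markers were not high in that library: Ebf2 was at 9.22 CPM, the lowest of the 22, Lhx8 at 0 and Zic1 at 0.0866 CPM. The summed level of 8 brown adipocyte markers was 123 CPM in K5F5118, 106 CPM in W18F24 and 77.4 CPM in W5F5042. W5F5041, with Ucp1 at 0.288 CPM, had a higher sum than W5F5042, at 78.6 CPM. In W18F24 the sum came mostly from Kcnk3 (50.4 CPM) and Ebf2 (34.6 CPM). Deviations of Ucp1 from its group mean had a Pearson r of 0.83 with Cox8b, 0.50 with Kcnk3 and -0.42 with Ebf2. These were the markers with a mean of at least 5 CPM. Over all adipose libraries the sum ran from 26.2 CPM, in K5F5248, to that of K5F5118, and its part in the Ucp1 level was not tested. The same sum was 407 to 1014 CPM in muscle libraries, so the list is not particular to brown fat. Young adipose libraries held 10.8 to 1039 CPM of 10 summed skeletal muscle fibre markers, whose part was not tested either.

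**Figure D2:**
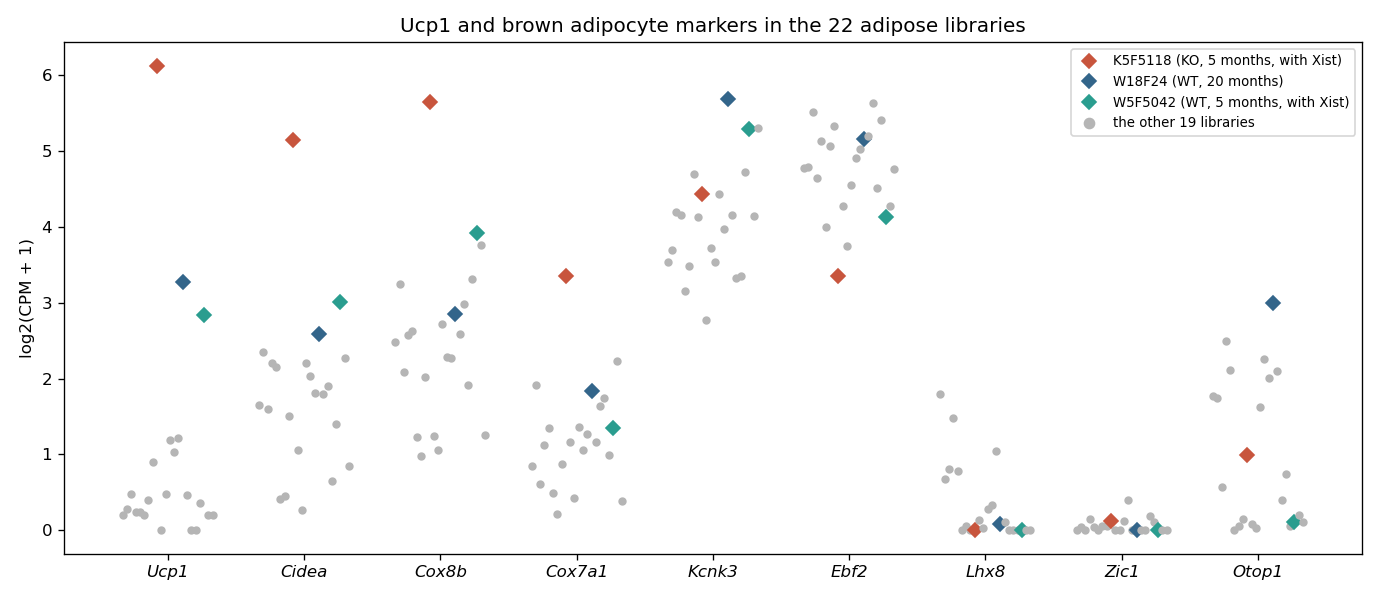
Ucp1 and the 8 brown adipocyte markers in the 22 adipose libraries, as log2(CPM + 1), 1 point per library; diamonds mark the 3 libraries with the most Ucp1. K5F5118, at 68.8 CPM of Ucp1, leads in Cidea, Cox8b and Cox7a1 and is lowest in Ebf2.

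Ucp2, a carrier abundant in white blood cells and fat, was highest in adipose tissue. All 22 adipose libraries, at 163 to 692 CPM, lay above all liver libraries (33.5 to 134 CPM) and all muscle libraries (15.6 to 99.9 CPM). The difference in young WT mice was 2.16 ± 0.28 against liver and 2.52 ± 0.28 against muscle on the log2 scale (± SE here and below), with adjusted p of 5.63e-10 and 5.46e-12. Liver and muscle did not differ past the threshold (0.36 ± 0.28, adjusted p = 0.236). With the code number as a block, in young WT libraries alone, the difference was called (0.57 ± 0.20, adjusted p = 0.0210).

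Ucp3, the muscle relative, was highest in muscle and lowest in liver. Its mean in young WT muscle was 578 ± 116 CPM (SD, n = 6), against 21.2 ± 11 CPM in adipose tissue. In liver, 13 of 22 libraries had 0 reads and the highest had 0.493 CPM. Muscle libraries spanned 393 to 764 CPM over all ages and genotypes, and the 4 muscle group means, 578 to 679 CPM, overlapped one another in their libraries. Per kilobase of the longest principal GENCODE transcript, Ucp3 had the highest level of the 9 genes in young WT muscle, at 236 CPM per kb, with Ucp2 next at 13.2.

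Adrb3, the receptor that receives the sympathetic signal in adipocytes, ranked first per kilobase in young WT adipose tissue, at 200 CPM per kb, followed by Ucp2 at 74.1. In the other adipose groups Ucp2 ranked first and Adrb3 second. They were at 109 and 89.9 CPM per kb in young KO, 80.2 and 48.1 in old WT, and 117 and 43.4 in old KO adipose tissue. Young WT adipose libraries had 156 to 1129 CPM with a median of 459 CPM, young WT liver libraries 1.82 to 4.41 CPM with a median of 3.40, and young WT muscle libraries 0.185 to 5.75 CPM with a median of 1.07. Adipose libraries of every group lay above all libraries of both other tissues. The difference was 6.68 ± 0.47 against liver (adjusted p = 3.21e-19) and 7.59 ± 0.47 against muscle (adjusted p = 1.70e-21).

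Ppargc1a, the coactivator of mitochondrial biogenesis, was highest in muscle. It averaged 47.5 ± 16.4 CPM (SD, n = 6) in young WT muscle, 14.6 ± 5.66 CPM in liver and 4.91 ± 4.76 CPM in adipose tissue, and the muscle libraries of all groups (28 to 88.9 CPM) lay above all others. Under plain scaling its estimate for adipose tissue against liver was -0.63 and was not called (adjusted p = 0.114). Ppargc1b, its close relative, had medians of 21.9 CPM in young WT liver, 5.74 CPM in adipose tissue and 5.25 CPM in muscle. Its muscle mean of 12.3 ± 13 CPM (SD, n = 6) rests on W5S5277, at 36.3 CPM. Ppargc1b was higher in liver than in adipose tissue (adipose tissue minus liver -1.42 ± 0.36, adjusted p = 0.000508) and than in muscle (1.09 ± 0.36, adjusted p = 0.00638), while adipose tissue and muscle did not differ past the threshold (-0.33 ± 0.36, adjusted p = 0.439). Both calls were lost under plain scaling (-0.38, adjusted p = 0.351, and 0.81, adjusted p = 0.05003). The one against muscle was also lost with edgeR (0.0824), DESeq2 (0.0969), these 2 groups alone (0.0504) and without libraries with Xist (0.0565). Each neighbouring pair in the order of its 12 group means overlapped. Prdm16, the brown fat regulator, was low throughout: 2.81 ± 0.89 CPM in young WT adipose tissue, 4.23 ± 1.47 CPM in muscle and 0.505 ± 0.236 CPM in liver. It passed the test against liver for both other tissues (1.32 ± 0.23 for adipose tissue, adjusted p = 9.77e-07; -1.76 ± 0.23 for liver minus muscle, adjusted p = 9.12e-10), whereas adipose tissue and muscle did not differ past it (-0.43 ± 0.23, adjusted p = 0.0880). That estimate was 0.24 under plain scaling (adjusted p = 0.412). It was called, lower in adipose tissue, without libraries with epididymal transcripts (-0.55, adjusted p = 0.00958) and with the code number as a block (-0.55, 0.0159). It was also called without W5F5299 (-0.55, 0.0372) or W5S5007 (-0.57, 0.0272). Dio2 averaged 4.12 ± 2.75 CPM in muscle and 0.658 ± 0.480 CPM in adipose tissue (difference -1.44 ± 0.24, adjusted p = 2.76e-07), and 1 read in 1 library was all that the 22 liver libraries held.

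Elovl3 was chiefly a liver transcript in these libraries. At 149 CPM per kb it led the 9 genes in young WT liver. Adipose libraries had at most 5.93 CPM. Muscle libraries had at most 0.332 CPM except W18S42, an old WT library, at 7.03 CPM. That muscle library also held 10 of 10 hepatocyte markers above 1 CPM and 3171 CPM of them in sum, against at most 51.6 CPM in the other 19 muscle libraries.

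Within young liver, Elovl3 fell into separate ranges. WT libraries had 4.32, 20.9, 230, 233, 341 and 850 CPM. KO libraries had 4.65, 13.3, 315, 328, 388 and 436 CPM. The 4 low values, 2 per genotype, were the 4 liver libraries with Xist, and the 8 young liver libraries without it averaged 390 ± 198 CPM (SD, n = 8) against 10.8 ± 7.94 CPM (n = 4). All 10 old liver libraries, which lack Xist, had 119 to 445 CPM. A term for Xist added to the 4-group fit, chosen after the values were seen, gave -5.19 ± 0.41 (adjusted p = 1.75e-08), and called 1 of the 5 members tested in liver beside 3.54% of all genes. Of a list of 17 genes known for sex-biased liver expression, 14 were tested, of which 6 were higher and 7 lower with Xist. Cyp4a12b, a male-biased cytochrome P450 whose reads its near-identical paralogs may share, was at -7.64 ± 0.62 and Cyp2a4, a female-biased one, at 8.73 ± 0.61 for libraries with Xist minus those without.

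**Figure D3:**
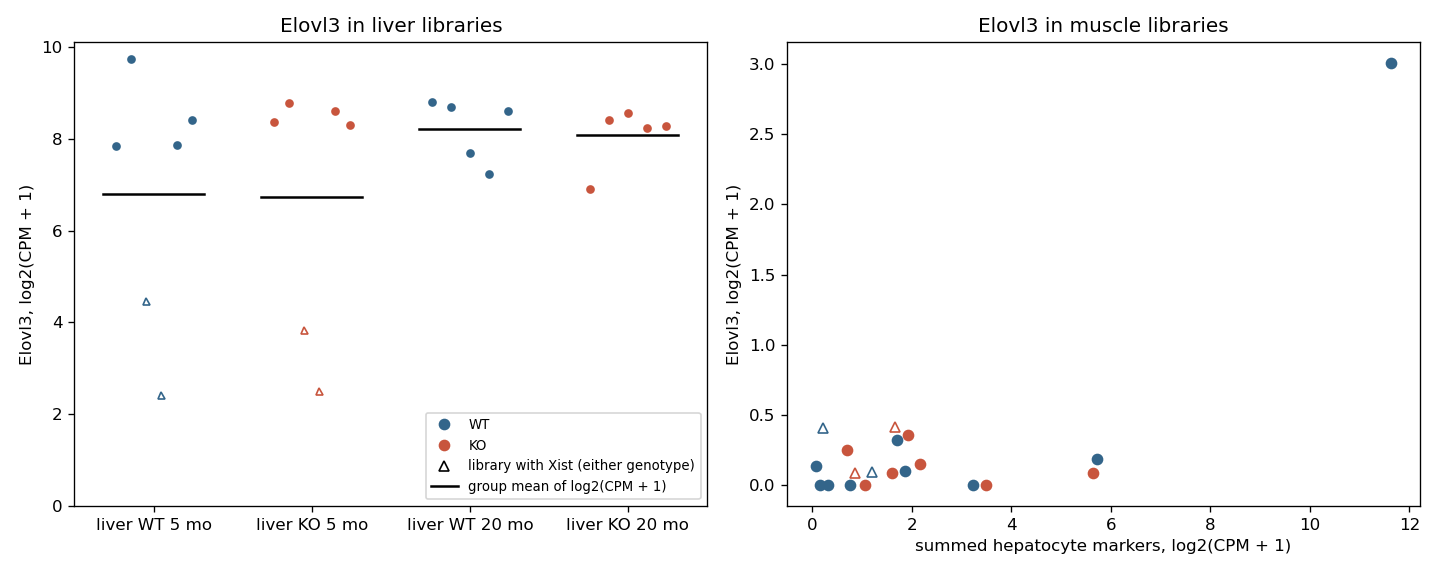
Left, Elovl3 as log2(CPM + 1) in each liver library by group, with triangles for libraries with Xist and bars for group means; right, Elovl3 against summed hepatocyte markers in the 20 muscle libraries. The 4 triangles in liver sit between 4.32 and 20.9 CPM, below all 18 circles, and in muscle W18S42 alone stands high on both axes.

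Other members differed with Xist in adipose tissue, in which 3 of 8 tested members were called beside 7.6% of all genes. Ppargc1a had 0.996, 1.15, 1.53 and 2.27 CPM in the 4 adipose libraries with Xist and 2.79 to 14.0 CPM in the 8 young libraries without it, so that the ranges did not overlap (-1.44 ± 0.30, adjusted p = 0.00726). Elovl3 (1.54 ± 0.43, adjusted p = 0.0327) and Ucp1 (2.37 ± 0.66, adjusted p = 0.0333) were higher with Xist. Both passed the filter on low values only because libraries with Xist, in which they were high, were counted. Their calls therefore support nothing. For both, the ranges of the young libraries overlapped. The Ucp1 call was lost without K5F5118 (1.18, adjusted p = 0.157), W5F5042 (0.127), K5F5218 (0.0563) or K5F5248 (0.0557). The Elovl3 call was lost with edgeR (adjusted p = 0.0770) and with a pseudocount of 0.1 (0.0566). It was also lost without K5F5218 (0.0522), K5F5248 (0.0571) or W5F5005 (0.0547). All 4 adipose libraries with epididymal transcripts are among the 8 young ones without Xist. Without them, 1 member was called: Ppargc1a was at -1.0 ± 0.25 (adjusted p = 0.0336), Elovl3 at 1.67 ± 0.54 (adjusted p = 0.0999) and Ucp1 at 2.10 ± 0.85 (adjusted p = 0.197). Brown adipocyte markers were above 0 in 6 of 6 tested cases in this comparison, 2 of them called. Endothelial markers were below 0 in 8 of 8 (median -0.65) and macrophage markers above 0 in 11 of 11 (median 0.41), with 0 called. Mesothelial markers were above 0 in 7 of 8 (median 1.03, 1 called). Adipocyte markers were above 0 in 7 of 10 (median 0.43, 1 called higher). Skeletal muscle fibre markers were above 0 in 5 of 8 (median 0.10, 1 called higher). The part of these cell types was not tested. In a fit of the young adipose libraries alone 0 members were called, with the Ppargc1a term at -1.44 (adjusted p = 0.0810). Ucp1 and Elovl3 did not pass the filter on low values in that fit, so they were not tested there. In muscle, 0 of 7 members were called by limma beside 1.82% of all genes, with 2 at an unadjusted p under 0.05 (17.3% of all genes) and 0 by edgeR. Dio2 was nearest, at 1.13 ± 0.30 (adjusted p = 0.0587). The Xist term itself differed between adipose tissue and liver for 3 of 9 members (9.88% of all genes). Between adipose tissue and muscle it differed for 3 (8.28%), and between liver and muscle for 2 (2.75%). Ucp1 in liver and muscle, Dio2 in liver and Elovl3 in muscle were near 0. There the difference mainly restates the term of the other tissue and does not show an unlike response. Same-numbered libraries of different tissues were treated as separate here too.

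Whether the loss of Myc alters these genes was asked in each tissue at each age. None of the 9 was called between KO and WT in any of the 6 comparisons by limma, and none by edgeR or DESeq2. In adipose tissue 0 of 8 tested members were called at 5 months beside 0.105% of all genes, and 0 of 8 at 20 months beside 0% of all genes. In liver 0 of 5 were called at either age, beside 0.0696% at 5 months and 0.0232% at 20 months. In muscle 0 of 7 were called at either age, beside 0% and 0.0302%. At an unadjusted p under 0.05, 1 member, Ucp2, was past it in muscle at each age (4.1% of all genes at 5 months and 13.8% at 20 months). In adipose tissue 0 were (11.8% and 2.25% of all genes), and in liver 0 (6.94% and 5.8%). The share of members called is near the background in each comparison.

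**Figure D4:**
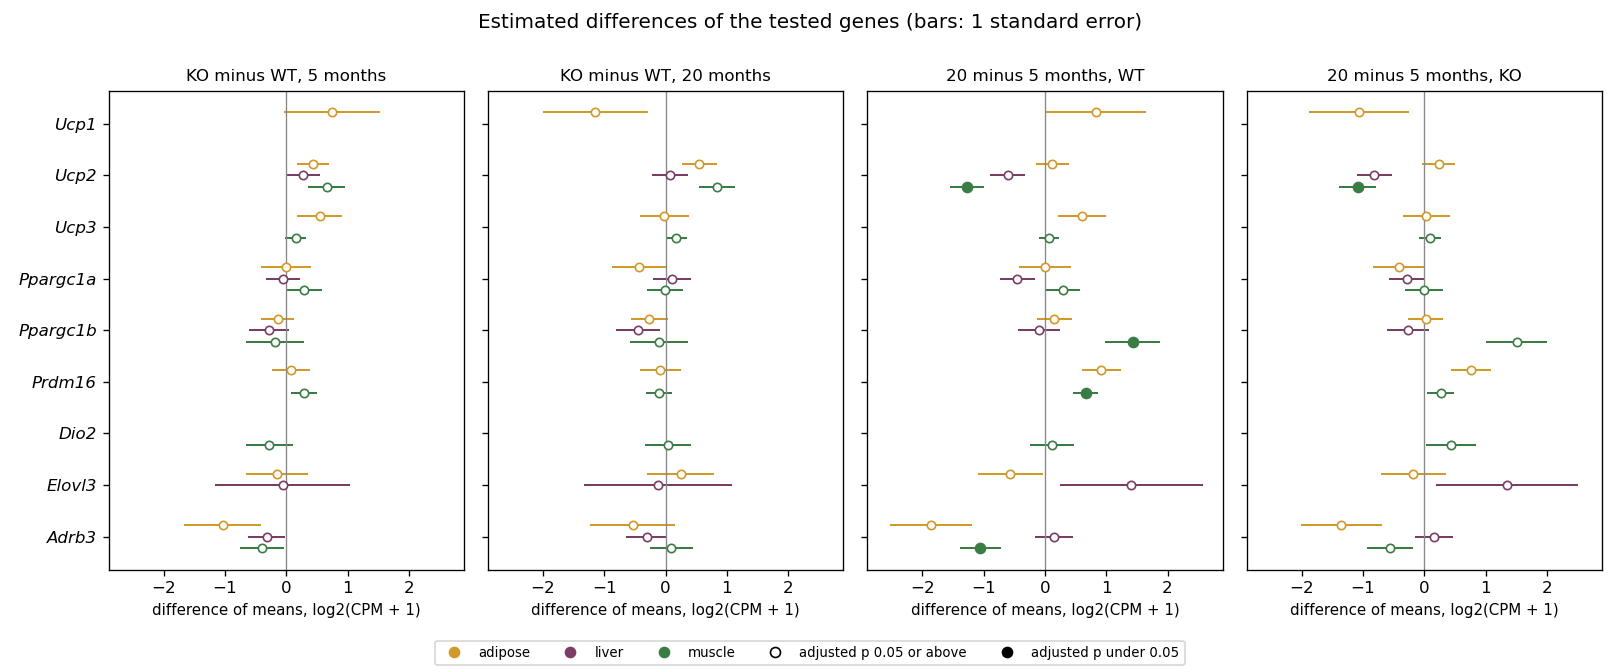
Estimated differences on the log2(CPM + 1) scale with 1 standard error, for each member tested in each tissue, by comparison; filled points passed the adjusted p threshold of 0.05. No point is filled in the KO against WT panels, and 5 muscle points are filled in the ageing panels.

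The estimates for KO minus WT differed in their precision. For Ucp2 all 6 were above 0: at 5 and 20 months, adipose tissue gave 0.44 ± 0.26 and 0.55 ± 0.28, liver 0.28 ± 0.27 and 0.07 ± 0.30, and muscle 0.66 ± 0.30 and 0.84 ± 0.29, with adjusted p from 0.295 to 1. The old muscle libraries had 20.9, 30.8, 30.8, 52.7 and 62.3 CPM in KO and 15.6, 16.1, 19.7, 25.1 and 25.5 CPM in WT, and 4 of the 5 KO libraries lay above every WT library. In old adipose tissue KO libraries had 369, 451, 452, 522 and 536 CPM and WT libraries 255, 294, 298, 324 and 429 CPM, again with 4 of 5 above every WT library. Of the macrophage markers, 11 were tested in each tissue. Their estimates were above 0 for KO minus WT in 10 of 11 cases in old adipose tissue (median 0.69) and in 11 of 11 in old muscle (median 0.63), with 0 called. In old adipose tissue, mesothelial markers were also above 0 in 8 of 8 cases (median 0.32). T cell markers were below 0 in 8 of 8 (median -0.18) and B and plasma cell markers in 7 of 7 (median -1.23), with 0 called. In muscle, adipocyte markers (10 of 10), endothelial markers (8 of 8) and slow fibre markers (6 of 7) were also above 0 at 20 months, with 0 called. In bulk tissue, fewer cells of a type and less RNA per cell cannot be told apart.

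Deviations of Ucp2 from its group mean followed those of the summed macrophage markers in adipose tissue (Pearson r = 0.86, Spearman rho = 0.84, n = 22) and in muscle (r = 0.70, rho = 0.64, n = 20), and less in liver (r = 0.42, rho = 0.50, n = 22). Without the 2 libraries farthest in the marker sum, r was 0.74, 0.75 and 0.56. Both values come from the same library and share its scaling, and the part of macrophage content in the Ucp2 differences was not tested.

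**Figure D5:**
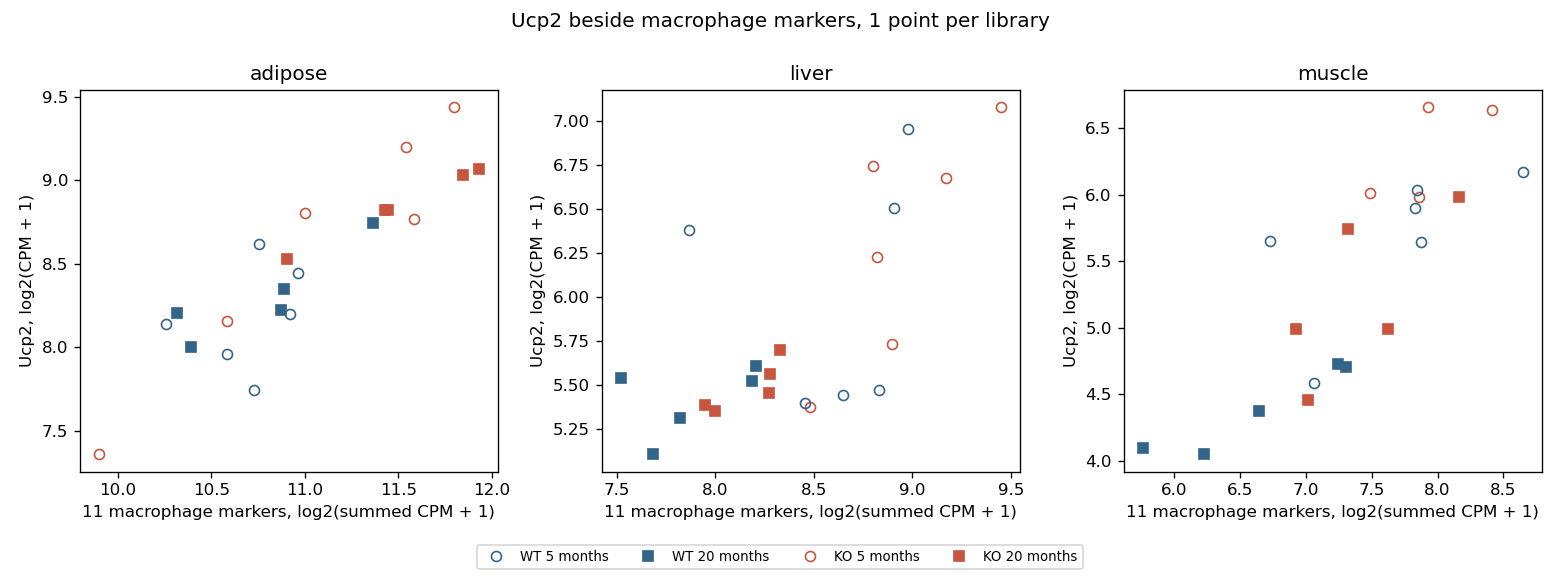
Ucp2 against 11 summed macrophage markers, both as log2(CPM + 1), 1 point per library, in each tissue; colour is genotype and open or filled symbols are 5 or 20 months. Ucp2 is higher where the markers are higher, and in muscle the old WT libraries lie low on both axes.

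For the other members the KO estimates were small or imprecise. Adrb3 in adipose tissue was -1.04 ± 0.63 at 5 months (adjusted p = 0.521), with KO libraries at 107 to 509 CPM (median 174) and WT libraries at 156 to 1129 CPM (median 459). The groups overlapped, and 9 of 10 adipocyte markers were likewise below 0 for KO minus WT (median -0.74, 0 called). Ucp3 in muscle was 0.15 ± 0.17 at 5 months and 0.18 ± 0.17 at 20 months. Ppargc1a in muscle was 0.29 ± 0.30 and -0.01 ± 0.29. Elovl3 in liver was -0.06 ± 1.11 and -0.12 ± 1.21. With Xist as a covariate, 0 members were called in each of the 6 comparisons. The change of the KO estimate from 5 to 20 months had 0 calls among members in each tissue, beside 0% of all genes (limma adjusted p from 0.991 to 1; 0 at an unadjusted p under 0.05, and 0 by edgeR and DESeq2).

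Of 194 genes in 11 lists of related pathways, the test covered 164 (adipose tissue), 162 (liver) and 154 (muscle), of which 0 were called between KO and WT in any tissue at either age. The lists hold brown and beige identity, adrenergic and lipolytic signalling, futile cycles, PGC-1 partners, PRDM16 partners, the thyroid hormone axis, mitochondrial carriers, elongases, the fasting and PPAR response, clock outputs and sex-biased liver genes.

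Between 5 and 20 months, 4 of 7 tested members were called in WT muscle, 2 higher and 2 lower, beside 18.6% of all genes (10.9% higher and 7.68% lower). Of these, Adrb3 passed the filter on low values only through young libraries, so its call supports nothing. With the 2 groups fitted alone, with no filter or without libraries with Xist, 1 member was called. Over the 7 tested members the median was 0.12, and that of all genes 0.03. In KO muscle 1 of 7 was called, beside 5.57%.

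Ucp2 fell. Young WT muscle libraries had 23, 49.0, 49.2, 58.6, 64.6 and 71.2 CPM and old ones 15.6 to 25.5 CPM. All old libraries lay below the 5 higher young ones, and the young library W5S5277 lay among the old. The mean dropped from 52.6 ± 16.9 (SD, n = 6) to 20.4 ± 4.73 CPM (n = 5), a difference of -1.27 ± 0.28 (adjusted p = 0.00718), and it passed under every alternative run. In KO muscle Ucp2 went from 62.2, 63.5, 98.7 and 99.9 CPM to 20.9, 30.8, 30.8, 52.7 and 62.3 CPM (-1.09 ± 0.31, adjusted p = 0.0443). The KO call was lost in 7 of 9 runs that left out 1 library (adjusted p from 0.0249 to 0.143). Beside it, macrophage markers in WT muscle were below 0 in 11 of 11 cases, 7 of them called, with a median of -1.21, and their sum was 105 to 400 CPM in young and 53.2 to 157 CPM in old libraries. In KO muscle 10 of 11 were below 0 (median -0.49, 0 called). Slow fibre markers were below 0 in 7 of 7 cases in both genotypes (medians -1.46 and -1.82, 0 called), with sums of 122 to 3998 CPM in young and 207 to 390 CPM in old WT muscle.

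Ppargc1b rose in WT muscle. Old libraries had 17.6, 19.6, 23.4, 30.4 and 36.6 CPM. Young libraries had 3.38, 5.01, 5.08, 5.43, 18.3 and 36.3 CPM, and the 2 highest of these, W5S5299 and W5S5277, lay within the old range. The difference was 1.43 ± 0.45 (adjusted p = 0.0337). It was lost in 8 of 11 runs that left out 1 library. It was also lost with edgeR (1.04, adjusted p = 0.142), DESeq2 (0.0974), the 2 groups alone (0.0767), no filter (0.0695), the sex covariate (0.0559) and without libraries with Xist (0.156). In KO muscle old libraries, at 14.1 to 33.5 CPM, all lay above the 4 young ones at 4.26, 4.61, 10.9 and 13 CPM, the 1 case without overlap among members over all age and genotype comparisons, beside 15.8% of all genes in KO muscle, although the adjusted p was 0.0762 (1.51 ± 0.50). A fit of these 2 groups alone gave 0.0184 and DESeq2 gave 0.0392. The same 2 young WT libraries, W5S5299 and W5S5277, had 122 and 148 CPM of slow fibre markers, the lowest sums in muscle. W5S5299 also held epididymal transcripts, whose part was not tested.

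Prdm16 rose in WT muscle from 2.10 to 6.15 CPM at 5 months (median 4.53) to 5.76 to 10.8 CPM at 20 months (median 6.40), and 4 of 5 old libraries exceeded every young one (0.66 ± 0.20, adjusted p = 0.0280). The call was lost without W18S72, the highest old library (adjusted p = 0.0783), W18S66 (0.0517), W5S5004 (0.0590) or W5S5007 (0.0644). It was also lost with the 2 groups alone (0.0732), no filter (0.0593) and without libraries with Xist (0.0632). In KO muscle the estimate was 0.27 ± 0.22 (adjusted p = 0.457). Adrb3 in WT muscle was at the edge of detection: young libraries had 0.185, 0.493, 0.967, 1.17, 1.52 and 5.75 CPM and old ones 0, 0, 0, 0.182 and 0.250 CPM, which is 0 to 5 reads. The highest young value, 5.75 CPM, was that of W5S5299, the muscle library with epididymal transcripts. The fitted Adrb3 difference was -1.05 ± 0.34 (adjusted p = 0.0352), and without any 1 of 4 old libraries other than W18S41 the adjusted p was 0.0605 to 0.0659. Adipocyte markers in muscle were below 0 in 9 of 10 cases (median -0.47, 2 called lower and 1 higher), and their part was not tested. Ucp3, Ppargc1a and Dio2 had estimates of 0.07 ± 0.16, 0.29 ± 0.28 and 0.12 ± 0.36 in WT muscle.

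In adipose tissue 0 of 8 members were called with age by limma in WT mice, beside 10.8% of all genes, and 0 of 8 in KO mice, beside 14.2%. At an unadjusted p under 0.05 there were 2 in WT (30.4% of all genes) and 1 in KO (32.2%), edgeR called 1 in each and DESeq2 2 in WT and 0 in KO. Nearest were Prdm16 (0.92 ± 0.32, adjusted p = 0.0668) and Adrb3 (-1.86 ± 0.66, adjusted p = 0.0697) in WT. Prdm16 had 2.0 to 4.53 CPM in young WT libraries (median 2.51) and 3.61, 4.91, 6.35, 7.57 and 9.24 CPM in old ones, 4 of which exceeded every young library. Without the 4 libraries with epididymal transcripts its adjusted p was 0.00677. Adrb3 had 46.6, 92.0, 140, 194 and 200 CPM in old WT libraries, and 3 of these lay below every young one. DESeq2 called both, and edgeR called Adrb3 (-2.08, adjusted p = 0.0454). In KO, edgeR called Ucp1 (-5.79, adjusted p = 0.0446), whose young KO mean follows K5F5118 at 68.8 CPM. Adipocyte markers were below 0 in 7 of 10 cases in WT adipose tissue (median -0.42, 2 called lower) and mesothelial markers in 8 of 8 (median -0.98, 1 called lower). T cell markers were called higher in 7 of 8 cases (median 1.09), B and plasma cell markers in 6 of 7 (median 2.17), and endothelial markers were above 0 in 7 of 8 (median 0.54, 0 called). In KO adipose tissue 5 of 7 B and plasma cell markers were called higher (median 1.29). The part of these cell types in the age differences was not tested.

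In liver 0 of 5 members were called with age by limma in WT (7.19% of all genes) and in KO (2.99%), with 1 each, Ucp2, at an unadjusted p under 0.05 (25.5% and 19.2% of all genes), 0 by edgeR in either, and by DESeq2 0 in WT and 1 in KO. Ucp2 was at 42.2 ± 5.89 CPM (SD, n = 5) in old and 70.4 ± 33.6 CPM (n = 6) in young WT liver (-0.61 ± 0.28, adjusted p = 0.182), and at 44.2 ± 4.49 and 84.7 ± 35.6 CPM in KO liver (-0.81 ± 0.28, adjusted p = 0.117). Young values were widely spread and old ones were not. Macrophage markers were below 0 in 10 of 11 cases in WT and 11 of 11 in KO liver (medians -0.62 and -0.74), 3 called in each. The Elovl3 estimate in WT was 1.41 ± 1.16 (adjusted p = 0.464), and with Xist as a covariate it was -0.32; in KO it was 1.35 and, with the covariate, -0.38.

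Among the pathway genes, in WT adipose tissue 12 list genes were higher and 5 lower of 164 tested, or 10.4%, near the share of all genes. In the adrenergic list, the adenylyl cyclases Adcy3 (1.19 ± 0.21, adjusted p = 0.00162) and Adcy5 (0.94 ± 0.26, adjusted p = 0.0242), which make cyclic AMP, and Creb1 (0.52 ± 0.13, adjusted p = 0.0182), a transcription factor that acts downstream of it, were higher, 3 of 20 tested. In KO adipose tissue Adcy3 (1.31 ± 0.21) and Adcy5 (0.91 ± 0.26) were higher too, with Prkar2b, a regulatory subunit of protein kinase A (214 ± 151 CPM in young and 516 ± 110 CPM in old libraries, adjusted p = 0.0201). In the PRDM16 list, the DNA-binding partner Nfia was lower in WT adipose tissue (57.8 ± 6.50 CPM in young, 30.6 ± 4.38 CPM in old; -0.90 ± 0.13, adjusted p = 0.000255) and Mecom, a PRDM16 relative, higher (1.08 ± 0.32). Dgat1, which re-esterifies fatty acids to triglyceride, fell by 1.54 on the log2 scale, and Atp2a3, a calcium pump also found in blood cells, rose by 1.66, beside the lymphocyte markers above. In the brown and beige list, Clstn3 was lower (31.9 ± 25.2 CPM in young, 5.57 ± 2.98 CPM in old; -2.10 ± 0.50, adjusted p = 0.0125), as was Letmd1 (-0.37 ± 0.11, adjusted p = 0.0393).

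In WT liver 9 list genes were higher and 6 lower of 162 tested, or 9.26% beside 7.19% of all genes. Cidea rose from 0.106 ± 0.176 CPM (SD, n = 6) to 69.5 ± 33 CPM (n = 5; 5.89 ± 0.58, adjusted p = 1.08e-05), and in KO liver by 4.42 ± 0.58. Clstn3, lower with age in WT adipose tissue, rose in liver by 1.74 ± 0.23 in WT and 1.39 ± 0.23 in KO. The list's name does not describe liver: 12 of its 24 genes were tested there and Ucp1 itself was at 0 in all 10 old liver libraries. The amino acid enzymes Tat (-1.61 ± 0.40) and Sds (-1.52 ± 0.39) of the fasting list were lower.

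In WT muscle 16 list genes were higher and 15 lower of 154 tested, 20.1% beside 18.6% of all genes. Among PGC-1 partners 5 rose and 2 fell of 22: Tfam, the mitochondrial DNA factor, rose by 0.70 ± 0.16 and Mef2c by 0.83 ± 0.26, and the nuclear receptor Ppard fell by 0.83 on the log2 scale. In the PRDM16 list 2 rose and 5 fell of 16, with Cebpd at -2.82 ± 0.74 and Cebpb at -1.55 ± 0.39, transcription factors of adipogenesis and inflammation. In KO muscle 1 list gene was higher and 2 lower of 154, or 1.95% beside 5.57% of all genes, among them the oxidase subunit Cox7a1 (-0.79 ± 0.18, adjusted p = 0.0196).

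The lists were chosen with earlier results of these data known and are not independent evidence. Genes most like each member were sought in the tissue of its highest mean, by the correlation of deviations from group means, as a description over libraries that share their scaling. For Elovl3 in 22 liver libraries these were Eif2s3y (Pearson r = 0.95) and Ddx3y (0.94), on the Y chromosome, and Cyp2d9 (0.94), a male-biased P450. For Ucp2 in 22 adipose libraries they were Fxyd5 (0.93), the chemokine Ccl9 (0.91) and Ms4a6d (0.90); Ccl9 and Ms4a6d are known from myeloid cells. For Ucp1 they were Josd2 (0.88), Mkks (0.84) and Tmem150a (0.84). For Ppargc1a in 20 muscle libraries they were Nr4a3 (0.80), Smim14 (0.76) and Tnmd (0.74), and Nr4a3 is an exercise-responsive nuclear receptor. For Ucp3 in muscle they were Man2a1 (0.82), Cyp26b1 (0.81) and Eif2ak3 (0.80), and for Adrb3 in adipose tissue 2010016I18Rik (0.80), Jup (0.74) and Vwa1 (0.73). Ppargc1b in liver was nearest to Arhgef5 (0.91), Prdm16 in muscle to Dixdc1 (0.87) and Dio2 in muscle to Tmem182 (0.86). The lists depend on the measure. By Spearman rho, 0 of the 3 genes remained for Ucp2, whose nearest were then Fos, Cd53 and Pcna, and 0 of 3 for Dio2. For Ucp1 they were then Adtrp, Ifit1 and Josd2.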

How the data were processed

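RNA was sequenced from 64 libraries in 12 groups. The deposited signal values, called CPM by the submitters, are reads on each gene multiplied by 1 factor per library: column sums ran from 0.529 to 1.6 M, and 100% of values were whole reads within 0.05 read. The submitters' processing notes name the builds GRCm38.p6 and mm10; the counting settings are not given in the sources used here. Of 36332 gene IDs, 35336 had a symbol, and IDs without one held 0.155% of reads. Depth was 15.4 to 28.5 M reads (median 19.6 M); a count of 0 allows 3 reads, a limit for counting error only.

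The main test was limma 3.58.1 with a trend (R 4.3.3) on log2(CPM + 1), 4 groups per tissue. Genes had to exceed 1 CPM in a number of libraries equal to the smallest group, and p-values were adjusted by Benjamini-Hochberg over all of them. Folds on this scale understate changes of low genes. Tissues were compared in WT at 5 months in 1 fit of all 64 libraries. The count tests of edgeR 4.0.16 and DESeq2 1.42.0 on recovered reads, other scalings, filters and pseudocounts, a sex covariate and each library left out were alternatives. Scripts were tested on simulated data. Pathway genes could be named if called, at a mean of at least 5 CPM and among the 3 largest changes of their list; genes most like a member were the 3 with the highest Pearson r. 1 gene that this rule names is not reported here. Members and lists were chosen with earlier results of these data known. Replicate numbers did not meet the rule for pairing, although libraries with 1 number in several tissues may come from 1 mouse. The labels do not say that all libraries came from separate animals per group, so p-values measure the spread between these samples.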

Additional observations from a re-analysis of the deposited data

Results flagged for a closer look

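Single libraries stood apart from their group on the log2(CPM + 1) scale in 10 of the 81 gene and group combinations checked; chance flags about 1 in 20. For Ucp1 in adipose tissue these were K5F5118 at 68.8 CPM (others 0 to 0.872), W18F24 at 8.69 CPM (others 0.379 to 1.33) and W5F5042 at 6.16 CPM (others 0 to 0.288). For Elovl3 they were K5F5118 at 5.93 CPM and K18F27 at 4.41 CPM in adipose tissue, K18L06 at 119 CPM in liver (others 302 to 375) and W18S42 at 7.03 CPM in muscle. In muscle, W5S5277 was low in Ucp2 at 23 CPM, K5S5118 was low in Ucp3 at 488 CPM and W18S72 was high in Prdm16 at 10.8 CPM.

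The difference between libraries with and without Xist itself differed between tissues for 5 members, by a test of the difference in limma (adjusted p in brackets), chosen after the data were seen. Between adipose tissue and liver it was 2.39 for Ucp1 (0.00509), -1.78 for Ppargc1a (0.00531) and 6.73 for Elovl3 (2.33e-12). Between adipose tissue and muscle it was 2.39 for Ucp1 (0.00765), 1.15 for Ucp3 (0.0323) and -1.72 for Ppargc1a (0.0108). Between liver and muscle it was -1.13 for Dio2 (0.0248) and -5.28 for Elovl3 (1.78e-08). Ucp1 had 1 read over all liver libraries and 1 over all muscle libraries, and Dio2 had 1 over all liver libraries. Elovl3 had at most 0.332 CPM in young muscle. For Ucp1, for Dio2 and for Elovl3 against muscle, the difference mainly restates the term of the other tissue. For these it does not show an unlike response.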

How the results depend on the processing

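KO against WT gave 0 called members in each tissue and age under every alternative run, and no called result of a member changed sign. Several uncalled estimates did, among them Elovl3 in WT liver ageing, from 1.41 to -0.32 with the sex covariate and, between adipose tissue and muscle, Prdm16 from -0.43 to 0.24 and Ppargc1b from -0.33 to 0.44 under plain scaling. Ageing counts moved, and the cause was not tested. In WT muscle 4 members became 1 with the 2 groups compared alone, 1 with no filter and 1 without libraries with Xist (1 to 4 with a library left out). In KO muscle 1 became 2 with 2 groups and 2 with DESeq2, and 0 with edgeR, no filter, the sex covariate or without libraries with Xist (0 to 1 with a library left out). In WT adipose tissue 0 became 2, Prdm16 and Adrb3, with 2 groups and with DESeq2 (0 to 1 with a library left out). The count was 1 with edgeR or the sex covariate (Adrb3) and without libraries with epididymal transcripts (Prdm16). Without libraries with Xist it was 1 by limma, Ucp1 (1.34, adjusted p = 0.0494). Ucp1 passed the filter there only through old WT libraries, so that call supports nothing. In KO adipose tissue 0 became 1 with edgeR (Ucp1) and 1 without epididymal transcripts (Prdm16; 0 to 1 with a library left out). In KO liver 0 became 1 with DESeq2 (Ucp2; 0 to 1). For the Xist term, 3 in adipose tissue became 0 in the 5-month libraries, where Ucp1 and Elovl3 did not pass the filter and were not tested. It became 1 without epididymal transcripts (1 to 3 with a library left out), and muscle gave 0 to 1. Plain library-size scaling moved the median of all genes by 0.18 in WT liver ageing (1105 higher and 208 lower calls), and by 0.83, 0.62 and -0.14 between tissues: calls were 11341 higher and 2057 lower for adipose tissue against liver, 10236 and 2397 against muscle, and 4712 and 6646 for liver against muscle. Same-numbered samples in WT at 5 months had a median correlation of 0.17, 11 of 14 over 0.1. Pairs with unlike numbers had a median of -0.048, 23 of 94 over 0.1. A replicate block called 7, 6 and 7 members between tissues, against 7, 5 and 6 unblocked. Depth limits Ucp1 outside fat, Dio2 in liver and Adrb3 in old muscle.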
